A study of Canis lupus familiaris with 12 samples.

Results

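CGNL1-KO MDCKII cells were compared with WT MDCKII cells by RNASeq. The comparison used the 3 CGNL1-KO and the 3 WT libraries, 6 of the 12 samples of the series, and every gene above 1 CPM (read counts scaled to library size) in at least 3 of the 12 libraries, which is 12650 of the 13672 genes listed. MDCKII cells are an epithelial line from dog kidney. CGNL1-KO is line 22, a clonal line in which CGNL1 was targeted by CRISPR/Cas9, and it was set against the parental WT genotype. The 2 other genotypes are the CGN-KO line 1G8, and the line 21D3, which is KO for both CGN and CGNL1 (double-KO). They share the fit and are used here for direct tests against CGNL1-KO. All cells were untreated, and each genotype has 3 libraries from 1 line. Nothing in the sources used here says that the libraries come from separate cultures, so p-values measure the spread between these libraries, which may be technical. The loss of CGNL1 and other properties of line 22 cannot be told apart.

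Paracingulin, the CGNL1 product, is a coiled-coil protein of the cytoplasmic face of epithelial junctions. It is found at tight junctions, where it binds ZO-1, and at adherens junctions, where it is recruited by PLEKHA7. Through its rod domain it binds nonmuscle myosin-2, and it interacts with the exchange factors Tiam1 and GEF-H1. Its relative cingulin, the CGN product, shares this domain organization.

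The reads behind each value were recovered from the deposited CPM. They summed to between 16837532 and 20987950 reads per WT library and between 17374607 and 22493492 per CGNL1-KO library. CPM are not divided by transcript length, so levels are compared between libraries for a gene, not between genes. All 14 epithelial markers were tested, and their summed level was 10235 to 10815 CPM in WT and 11033 to 11426 CPM in CGNL1-KO cells. CDH1 (E-cadherin, log2 difference 0.25), EPCAM (0.26) and KRT19 (0.36) were higher in CGNL1-KO cells and CLDN4 (-0.41) was lower. Of the markers of other cells, 1 of 11 fibroblast, 2 of 10 endothelial and 4 of 11 leukocyte genes were tested, and COL1A1, PECAM1 and PTPRC were not listed. The endothelial genes KDR (0.46) and FLT1 (0.24) passed the test, though 0 did with libraries scaled to totals, without WT replicate 1 or 3 or without CGNL1-KO replicate 2 or 3, and 1 without WT replicate 2, and their sum was 168 to 185 CPM in WT and 190 to 224 CPM in CGNL1-KO cells, and the leukocyte sum was 13.8 to 15.3 CPM and 15.1 to 19 CPM, with LAPTM5 (0.47) as the gene that passed, except without WT replicate 1 or 3 or CGNL1-KO replicate 2 or 3. The fibroblast gene PDGFRA was at 2.7 to 5.48 CPM and 3.75 to 9.81 CPM (adjusted p = 0.422). The part of such cells in the inflammatory, MHC and matrix results was not tested. In bulk RNA, fewer cells of a type and less RNA per cell cannot be told apart.

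The targeted gene was lower in the CGNL1-KO libraries. CGNL1 was at 12.3, 9.22 and 7.74 CPM in WT and at 3.02, 1.76 and 2.25 CPM in CGNL1-KO cells. The groups did not overlap, and the KO mean was 24% of the WT mean. The log2 difference, CGNL1-KO minus WT on the scale of log2(CPM + 1), was -1.68 ± 0.17 (SE, n = 3 libraries per genotype, limma, adjusted p = 7.28e-06). CGN was at 233, 211 and 199 CPM in WT and at 213, 202 and 198 CPM in CGNL1-KO cells (log2 difference -0.07, adjusted p = 0.66), so its values overlapped. None of the 3 placed genes on each side of CGNL1 in the reference gene order (MNS1, ZNF280D, TCF12, POLR2M, LOC610170 and ADAM10) passed the adjusted test by limma, edgeR or DESeq2, 1 had an unadjusted p below 0.05, and the log2 differences ran from -0.10 to 0.28.

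More genes rose than fell in CGNL1-KO cells. An adjusted p below 0.05 at any fold was reached by 861 genes in the higher direction (6.81% of those tested) and by 441 in the lower direction (3.49%). With libraries scaled to their totals the numbers were 681 and 610, so the excess of rises is smaller on that scale, where the median of all genes was -0.034 instead of -0.0031. With at least a 2-fold difference as well, which is what "changed" means here, 48 genes were higher (0.379%) and 30 were lower (0.237%). The values of the 2 genotypes did not overlap for any of the 78. Among all genes tested, 13.3% had all 3 CGNL1-KO values above the WT values and 11.1% had all 3 below them. Without CGNL1-KO replicate 1 the changed genes were 36 higher and 46 lower. At any fold, 565 genes were higher and 281 lower without WT replicate 2, and 287 were lower without CGNL1-KO replicate 3. With only CGNL1-KO and WT in the fit, 552 were higher and 235 lower at any fold. Counts of list members in that fit are not given here. The plot of level against change shows that the largest falls are larger than the largest rises.

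**Figure D1:**
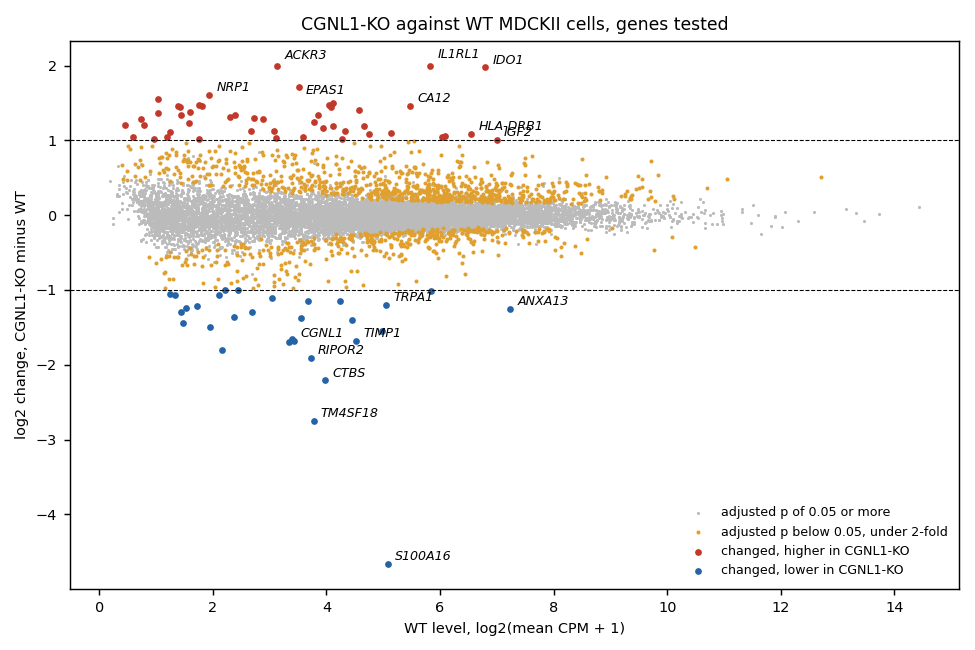
Each point is 1 of the 12650 genes tested: the x axis is the WT level, log2(mean CPM + 1), and the y axis the log2 difference, CGNL1-KO minus WT. Red and blue points are the 48 higher and 30 lower genes called changed, and dashed lines mark the 2-fold limits. S100A16 stands lowest at -4.66 and IL1RL1 highest at 2.0.

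The 3 largest rises were of IL1RL1, ACKR3 and IDO1. IL1RL1 (ST2, the receptor of interleukin-33) was at 58.2, 47.7 and 61.2 CPM in WT and at 229, 215 and 229 CPM in CGNL1-KO cells. ACKR3, an atypical receptor that scavenges chemokines, was at 7.78, 6.62 and 8.98 CPM and at 35.7, 31.1 and 34.2 CPM. IDO1, which starts the breakdown of tryptophan to kynurenine, was at 112, 94.7 and 125 CPM and at 634, 288 and 453 CPM. Each of the 9 KO values lay above all WT values of its gene, and the KO libraries were close to each other for IL1RL1 and ACKR3 but spread widely for IDO1, with replicate 1 highest. The log2 differences were 2.0 ± 0.08 for IL1RL1, 1.99 ± 0.10 for ACKR3 and 1.98 ± 0.21 for IDO1 (SE, adjusted p = 1.66e-10, 4.35e-09 and 1.25e-05). 

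Among transcription and guidance genes, EPAS1, which encodes the hypoxia-inducible factor HIF-2α, was at 10.5, 9.72 and 10.8 CPM in WT and at 38.3, 34.1 and 37.2 CPM in CGNL1-KO cells (log2 difference 1.72, adjusted p = 1.14e-08). NRP1, a co-receptor for semaphorins and VEGF, was at 2.47, 3.04 and 2.96 CPM and at 10.9, 10.2 and 10.9 CPM (1.61, adjusted p = 1.72e-08). PDE1A, a calmodulin-dependent cyclic nucleotide phosphodiesterase, was at 1.41, 1.10 and 0.669 CPM and at 4.88, 5.24 and 4.98 CPM (1.56, adjusted p = 4.55e-06). For these 3 genes the KO libraries agreed closely and all lay above WT. The other genes among the 15 largest rises had log2 differences of 1.41 to 1.5: CFB (complement factor B), LBP (the lipopolysaccharide-binding protein), the secretoglobin SCGB1A1, the protease PRSS12, FAM171A1, the membrane-bound carbonic anhydrase CA12, the monocarboxylate transporter family member SLC16A14, the fatty acid hydroxylase CYP4A37 and the proton pump subunit ATP6V0D2. CYP4A11 (1.13) is a close relative of CYP4A37, so reads of the pair may have been split between them by the counting.

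The 3 largest falls were of S100A16, TM4SF18 and CTBS. S100A16, a calcium-binding protein of the S100 family, was at 31.6, 32.1 and 35.1 CPM in WT and at 0.29, 0.361 and 0.375 CPM in CGNL1-KO cells, and the ratio of the WT to the KO mean was 96.3. TM4SF18, a membrane protein with 4 transmembrane spans, was at 14.8, 11.9 and 11.5 CPM and at 0.813, 0.903 and 1.44 CPM. CTBS, a lysosomal chitobiase, was at 14.1, 15.6 and 14.2 CPM and at 2.21, 2.35 and 2.57 CPM. All 9 KO values were below every WT value of the gene, with little spread within a genotype. The log2 differences were -4.66 ± 0.22, -2.75 ± 0.18 and -2.21 ± 0.13 (SE, adjusted p = 1.99e-09, 3.93e-08 and 1.56e-08).

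RIPOR2 was at 12.3, 11.6 and 12.6 CPM in WT and at 2.61, 2.21 and 2.73 CPM in CGNL1-KO cells (log2 difference -1.91, adjusted p = 7.38e-08). TIMP1, a secreted inhibitor of metalloproteinases, was at 22.9, 21.2 and 22.2 CPM and at 5.57, 6.59 and 6.42 CPM (-1.68, adjusted p = 2.59e-07). STEAP1 and STEAP2, membrane proteins of the same family, fell by 1.66 and 1.55 on the log2 scale. GLT1D1, a predicted glycosyltransferase (-1.80), GAS7 (-1.70), the connexin GJB1 (-1.40), the regulator of Na,K-ATPase FXYD6 (-1.38) and the muscle-type fructose bisphosphatase FBP2 (-1.36) completed the larger falls together with the nuclear proteins MNDA (-1.50) and PRDM16 (-1.44). PRDM16 had 98 reads in the 3 WT libraries and 1 read in the 3 CGNL1-KO libraries, a depth-corrected ratio of WT to KO of 102, with an exact 95% interval of 17.8 to 4054 that covers counting error only.

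**Figure D2:**
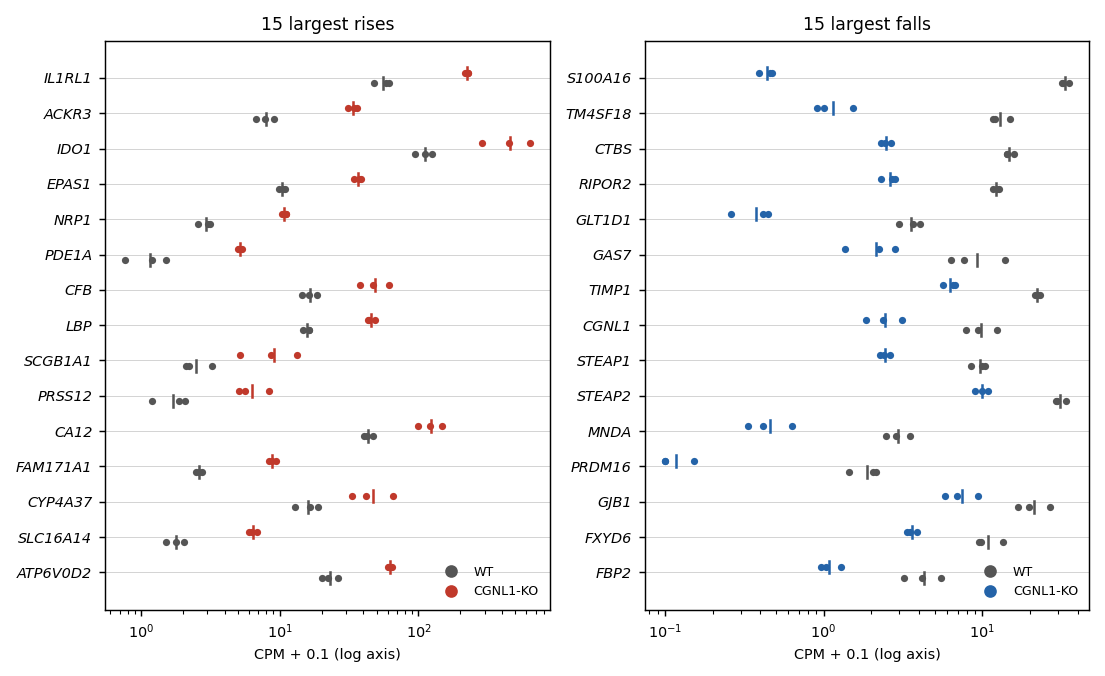
Points are the values of single libraries, as CPM + 0.1 on a log axis, for the 15 largest rises (left) and the 15 largest falls (right) among changed genes. Grey points are the 3 WT and coloured points the 3 CGNL1-KO libraries, and short bars are group means. Genes were drawn only if the genotypes did not overlap, and IDO1, SCGB1A1 and CYP4A37 have the widest spread among KO libraries.

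Some genes of inflammation rose beyond those with the largest changes. Of 32 chemokines, interleukins and receptors tested, 11 were higher and 0 lower (34.4% against 6.81% of all genes, median log2 difference 0.24 against -0.0031). They included IL1RL1, ACKR3 and the chemokines CCL20 (11 to 11.1 CPM in WT and 17.5 to 31.3 CPM in CGNL1-KO cells, log2 difference 1.04), CXCL10 (0.75) and CXCL8 (0.74). Among genes outside the list, picked after their values were seen, the interleukin receptor subunits IL31RA, at 0.883 to 1.1 CPM in WT and 0.107 to 0.451 CPM in CGNL1-KO cells (-0.64, adjusted p = 0.013), and IL10RA, at mean levels of 23.5 and 16.6 CPM (-0.47, adjusted p = 0.0014), were lower. With these, 28 genes with symbols of IL and a number were tested. Of them, IL1RL1 and IL13RA1 were higher and IL31RA and IL10RA lower. Each share was 7.14%, against 6.81% higher and 3.49% lower over all genes. The chemokine CCL17, a changed gene that is also outside the list, was at 33.9, 32.1 and 36.6 CPM in WT and at 77.4, 73.7 and 71.9 CPM in CGNL1-KO cells (1.10, adjusted p = 1.56e-08). Of 25 genes of the NF-κB pathway and its inflammatory targets, 7 were higher and 1 lower (median 0.16). The complement genes CFB (1.5) and C3 (0.84) led them, the feedback inhibitors TNFAIP3 (0.41) and NFKBIA (0.23) were among them, and the kinase IRAK2 was the lower gene (-0.36). The higher genes of this list were 3 without WT replicate 3 and 4 without WT replicate 2 or CGNL1-KO replicate 3, and 0 were lower in the fits that left out a library other than CGNL1-KO replicate 3. KO replicate 1 held the highest value of IDO1, CFB, C3, CCL20 and CXCL10, and without it the change of CCL20 was under 2-fold.

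Within the list of interferon response and antigen presentation, 7 of 47 genes rose and 7 fell (median -0.0096). Each share was 14.9%, against 6.81% higher and 3.49% lower over all genes. The rises were all in antigen presentation. CIITA, the activator of MHC class II transcription, was at 11.5, 12.2 and 13.8 CPM in WT and at 23.9, 21.6 and 23.2 CPM in CGNL1-KO cells (log2 difference 0.83, adjusted p = 1.23e-05). DLA-DMB, which helps to load peptides on class II molecules, was at 14.6, 12.8 and 13.3 CPM and at 37.3, 32.7 and 37.5 CPM (1.34, adjusted p = 3.93e-08). DLA-DMA (0.80), the partner of DLA-DMB in loading, the class II chain DLA-DRA (1.06) and the invariant chain CD74 (0.54) rose as well. So did the class I genes DLA-64 (0.31) and DLA-12 (0.28). HLA-DRB1 (1.09) and DLA-DQA1 (1.19), class II chains that are not in the list, were among the changed genes. Dog MHC genes have near-identical copies, so the share of reads of each copy is uncertain.

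The falls were genes induced by type I interferon and NLRC5, the activator of class I transcription. MX1, an antiviral GTPase, was at 326, 249 and 260 CPM in WT and at 188, 175 and 205 CPM in CGNL1-KO cells (log2 difference -0.54, adjusted p = 0.0036). RSAD2 (-0.50), CMPK2 (-0.46), IFI44L (-0.43), IFIT3 (-0.36) and OAS3 (-0.24) were lower too, and NLRC5, at 1.05 to 1.67 CPM in WT and 0.361 to 0.803 CPM in CGNL1-KO cells, had a log2 difference of -0.55 (adjusted p = 0.0251). None of the 7 falls reached 2-fold. Without WT replicate 1, 4 genes of the list were lower.

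**Figure D3:**
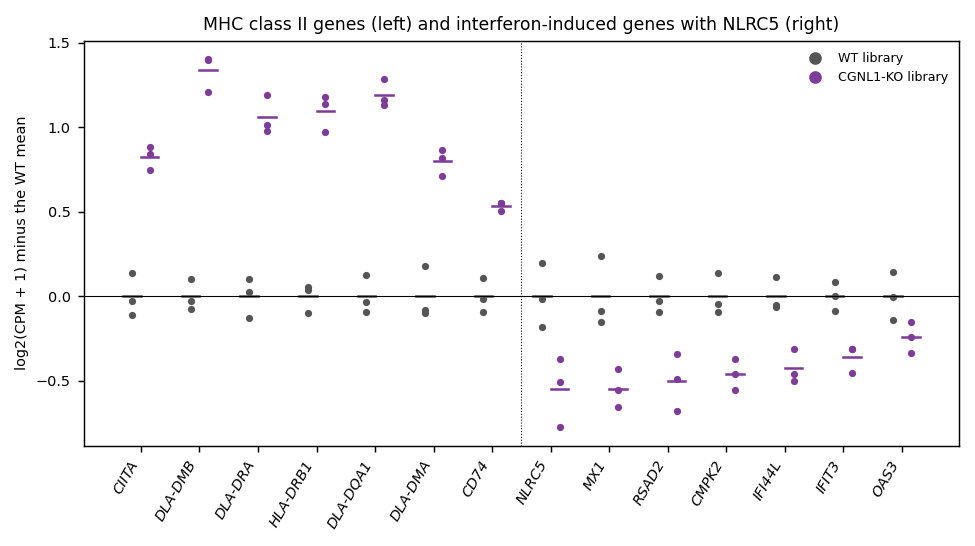
Points are single libraries, as log2(CPM + 1) minus the mean of the 3 WT libraries for each gene, grey for WT and purple for CGNL1-KO, and bars are means. The choice of genes here followed from their values: 7 MHC class II genes on the left had means of 0.54 to 1.34 in CGNL1-KO cells, and NLRC5 and 6 interferon-induced genes on the right had means of -0.55 to -0.24.

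More genes of the extracellular matrix and its remodelling rose than fell. Of 34 laminins, collagens and other matrix genes, 13 were higher and 2 lower (38.2% and 5.88%, median 0.19). Over all genes the shares were 6.81% and 3.49%. The rises ran from SPARC, a matrix glycoprotein that was at 0.471 to 0.938 CPM in WT and 2.61 to 3.21 CPM in CGNL1-KO cells (log2 difference 1.21), through COL5A3 (0.97), COL5A1 (0.52), FBLN1 (0.51) and FN1 (0.38) to LAMA3 (0.19), and the falls were COL27A1 (-0.56) and biglycan (BGN, -0.38). In each fit that left out a WT library 1 gene of the list was lower, and without CGNL1-KO replicate 2, 0 were. The summed level of the list overlapped between genotypes, at 18625 to 21849 CPM in WT and 18679 to 23991 CPM in CGNL1-KO cells. Of 18 tested genes with symbols of COL and a number, 3 were higher and 2 lower (16.7% and 11.1%), COL28A1 being the other lower gene. Of 12 regulators and genes of epithelial-mesenchymal transition, 6 were higher and 0 lower (50% and 0%, median 0.22): MMP9, SPARC, TGFBI (0.76), LOXL2 (0.71), SNAI1 (0.46) and FN1. The summed level of these 12 genes was 3927 to 4468 CPM in WT and 3507 to 4317 CPM in CGNL1-KO cells. MMP9 and SNAI1 lie on the chromosome of MYL9, described after the metabolic genes, and the median of the other 10 genes was 0.036.

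Among 29 metalloproteinases, genes of the plasminogen system and their inhibitors, 8 were higher and 3 lower (median 0.21). The shares were 27.6% and 10.3%, against 6.81% and 3.49% of all genes. MMP9, a gelatinase, was at 1.77, 1.82 and 2.53 CPM in WT and at 12.8, 3.57 and 6.74 CPM in CGNL1-KO cells (log2 difference 1.38, adjusted p = 0.00327). Its 3 KO values were all above WT but 1 library was far higher than the others, and without CGNL1-KO replicate 1 the change was under 2-fold. PLAT, the tissue plasminogen activator, rose by 0.86, and TIMP1 (-1.68), the collagenase MMP13 (-0.78) and ADAMTS9 (-0.57) fell.

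Integrins and guidance receptors moved in both directions. The shares of higher and lower genes were 22.7% and 13.6% for integrins and 18.4% and 5.26% for ephrins and semaphorins. Over all genes they were 6.81% and 3.49%. Of 22 integrins and integrin-associated genes, ITGA7 (log2 difference 0.74), FERMT1 (0.73), which encodes the integrin activator kindlin-1, ITGB3 (0.54), ITGB5 (0.51) and ITGA1 (0.43) were higher, and TLN2, the integrin activator talin-2, was lower (-0.92, 35.1 to 40.4 CPM in WT and 18.4 to 20.2 CPM in CGNL1-KO cells), with ITGB8 (-0.44) and ITGA2 (-0.35). FERMT1 lies on the chromosome of MYL9. Of 38 ephrins, semaphorins and their receptors, 7 were higher and 2 lower (median 0.11). NRP1 rose by 1.61 while its relative NRP2 fell by 0.48, and SEMA7A (0.60), EPHB2 (0.47) and PLXNA2 (-0.47) were among the others. 

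Among junction genes, the group to which CGNL1 belongs, all claudins and desmosome genes that passed the test were lower. Of 8 claudins tested, 0 were higher and 3 lower (0% and 37.5%, against 6.81% and 3.49% of all genes, median -0.13). CLDN3 was at 37.1, 46.4 and 57 CPM in WT and at 32.3, 20.5 and 22.4 CPM in CGNL1-KO cells (log2 difference -0.88, adjusted p = 0.00207), CLDN16 fell by 0.55 and CLDN4 fell by 0.41. Of 20 other tight junction proteins and scaffolds, JAM3 (0.39) and AMOTL1 (0.21) were higher and ILDR1 (-0.50) and MAGI1 (-0.37) lower, and scaled to library totals 1 was higher and 4 lower. Of this list 0 were higher without WT replicate 2 and 1 without WT replicate 3 or any CGNL1-KO library, while 0 were lower without WT replicate 1 or CGNL1-KO replicate 2 or 3 and 1 without WT replicate 2 or 3. In the adherens junction list of 17, the nectin NECTIN3 (0.63), CTNNB1 (0.25) and CDH1 (0.25) were higher and 0 lower, and 1 was higher without CGNL1-KO replicate 3. The 12 desmosome genes had 0 higher and 4 lower members (33.3%), the cadherins DSG3 (-0.63) and DSC2 (-0.36), envoplakin (EVPL, -0.61) and PKP4 (-0.18). Of 19 polarity genes 0 passed the limma test, 2 had an unadjusted p below 0.05, 0 passed edgeR or DESeq2, and the median was -0.015.

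PLEKHA7, the adherens junction protein that recruits paracingulin, was at 5.54, 6.68 and 5.59 CPM in WT and at 2.32, 3.02 and 2.51 CPM in CGNL1-KO cells. The genotypes did not overlap. The log2 difference was -0.94 ± 0.12 (SE, adjusted p = 8.22e-05), just under the 2-fold limit, and edgeR on the recovered reads, which adds no pseudocount of 1 CPM, gave -1.17 (adjusted p = 0.000166) and called it changed. Of the 17 genes of the PLEKHA7 complex and of junctional microtubule anchoring, 0 were higher, and CAMSAP2 (-0.21) and CLIP1 (-0.19), which bind microtubule ends, were the other lower genes. The share lower was 17.6%, while over all genes 6.81% were higher and 3.49% lower. Without WT replicate 1 or CGNL1-KO replicate 3, 1 gene of the list was lower.

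Most myosin-2 and actin genes did not pass the test. Over all genes 6.81% were higher and 3.49% lower. The shares were 13.6% and 4.55% for myosin-2 genes and 10.2% and 2.04% for actin genes. For SRF and MRTF targets they were 15% and 20%, and for YAP targets 27.8% and 0%. Of 22 genes of nonmuscle myosin-2 and its regulators, 3 were higher and 1 lower (median 0.05). MYL9, a regulatory light chain, was at 10.5, 9.88 and 13.1 CPM in WT and at 20, 24 and 21 CPM in CGNL1-KO cells (log2 difference 0.90, adjusted p = 1.32e-05), MYH14, the heavy chain of NM2C, rose by 0.39, LUZP1 by 0.19, and the kinase ROCK2 fell by 0.22. Without WT replicate 2 or 3, 1 gene of the list was higher, and 0 were lower without WT replicate 1 or 2 or CGNL1-KO replicate 2 or 3. Of 49 actin genes, 5 were higher, led by profilin-2 (PFN2, 0.79), and DIAPH3 was lower (-0.19), with 2 higher without WT replicate 1 and 3 without WT replicate 2 or CGNL1-KO replicate 1 or 3. The actin list had 0 lower genes without WT replicate 2 or 3 or CGNL1-KO replicate 1 or 2. The 20 targets of SRF and MRTF (median 0.016, and -0.017 scaled to totals) had 3 higher and 4 lower members, MYL9, FILIP1L (0.82) and CNN2 (0.43) against FHL1 (-1.24), TAGLN (-0.42), CNN3 (-0.29) and PDLIM5 (-0.25). Of 18 YAP targets, TGFB2 (0.92), ANKRD1 (0.67), CTGF (0.49), NUAK2 (0.49) and AMOTL1 were higher and 0 lower (median 0.09), and 3 were higher without WT replicate 1 or CGNL1-KO replicate 2 or 3.

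Growth factor genes moved in both directions. Of 37 genes of the EGF receptor family, other growth factors and MAPK feedback, 8 were higher and 10 lower (median -0.07). The shares were 21.6% and 27%, against 6.81% and 3.49% of all genes. NRG1, a ligand of ERBB receptors, was at 36, 45.4 and 45.8 CPM in WT and at 68, 101 and 85.8 CPM in CGNL1-KO cells (log2 difference 0.98, adjusted p = 0.000213), and PDGFB (0.59), FGFR3 (0.44), FGFR2 (0.36), EGFR (0.32) and VEGFA (0.31) rose. The lower genes were the ETS factors ETV5 (-0.64) and ETV4 (-0.34), the feedback inhibitors SPRY2 (-0.41), DUSP5 (-0.37), ERRFI1 (-0.36), DUSP6 (-0.32) and SPRED2 (-0.27), the ligands PDGFC (-0.75) and EREG (-0.44), and the receptor ERBB4 (-0.51). The ETS factor ETV1, which is not in the list, was among the changed genes, at 14.4, 10.4 and 10.6 CPM in WT and 5.69, 3.93 and 4.6 CPM in CGNL1-KO cells (-1.15, adjusted p = 0.000906). DUSP10 (0.45) and PHLDA1 (0.44) were the feedback genes that rose. Without WT replicate 1, 5 of the genes were lower, and without WT replicate 2 or CGNL1-KO replicate 3, 5 were higher.

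Genes of other signalling pathways passed the test as well. The shares of higher and lower genes were 17.5% and 0% for TGF-β and BMP and 22.2% and 5.56% for Notch. For Wnt they were 7.89% and 7.89%, and over all genes 6.81% and 3.49%. The Wnt share of higher genes was thus near that of all genes. Of 40 TGF-β and BMP genes, 7 were higher and 0 lower: TGFB2 (27.8 to 32.3 CPM in WT and 56.2 to 58.4 CPM in CGNL1-KO cells, log2 difference 0.92), BMP2 (0.80), BMP1 (0.51), INHBA (0.48), PMEPA1 (0.43), GDF11 (0.35) and BMP7 (0.33). The list's median was 0.015, and it was -0.017 with libraries scaled to totals. BMP2, BMP7 and PMEPA1 lie on the chromosome of MYL9, and the median of the members elsewhere was -0.02. In the Notch pathway (18 genes, 4 higher and 1 lower) the ligands JAG1 (77.8 to 82.4 CPM and 149 to 154 CPM, 0.92), which also lies on that chromosome, and DLL4 (0.55) rose and JAG2 fell (-0.54), and 1 gene was higher without WT replicate 3 or CGNL1-KO replicate 3 and 2 without WT replicate 2, while 0 were lower without WT replicate 2 or 3 or CGNL1-KO replicate 2 or 3. Of 38 Wnt genes, 3 were higher and 3 lower (median 0.0028, and -0.029 scaled to totals), with the ubiquitin ligase RNF43 at 0.75 and the R-spondin receptor LGR6, at 3.01 to 3.68 CPM in WT and 0.929 to 1.18 CPM in CGNL1-KO cells, at -1.07. IGF2, a growth factor, was at 147, 114 and 120 CPM in WT and at 326, 222 and 227 CPM in CGNL1-KO cells (1.01, adjusted p = 5.44e-05), and it fell under 2-fold without WT replicate 2 or 3 or CGNL1-KO replicate 1.

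**Figure D4:**
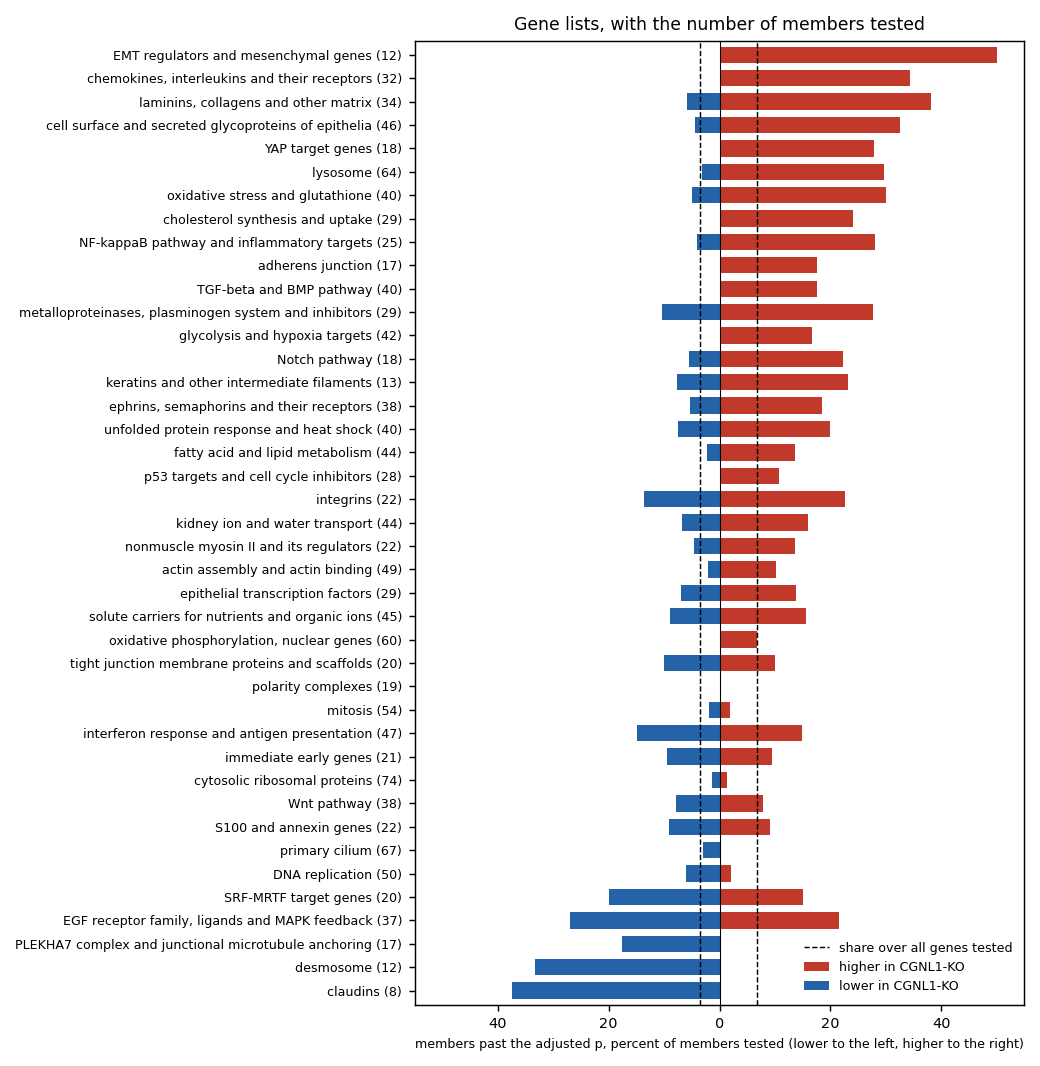
Bars give the percent of the tested members of each list that passed the adjusted p at any fold, higher in CGNL1-KO cells to the right (red) and lower to the left (blue). Numbers in brackets are members tested, and dashed lines are the shares over all genes, 6.81% and 3.49%. Cell type marker lists, lists with fewer than 8 tested members and 1 list not reported here are not drawn. Of the lists drawn, that of epithelial-mesenchymal transition reaches furthest to the right at 50%, followed by matrix at 38.2%, and claudins reach furthest to the left at 37.5%.

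Lysosomal and redox genes rose by small amounts in large numbers. Of 64 lysosomal genes, 19 were higher and 2 lower (29.7% and 3.12%, against 6.81% and 3.49% of all genes, median 0.16). However, without WT replicate 2 the higher genes were 10. The protease CTSD was at 381, 325 and 373 CPM in WT and at 704, 541 and 584 CPM in CGNL1-KO cells (log2 difference 0.75, adjusted p = 5.55e-05), CTSZ rose by 0.67, CTSH by 0.54 and LAMP1 by 0.24, against the fall of CTBS (-2.21) and of the transcription factor MITF (-0.21), with 1 gene lower without WT replicate 1 or 2 or CGNL1-KO replicate 2 or 3. CTSZ and CTSA (0.41) lie on the chromosome of MYL9. Of 40 genes of oxidative stress and glutathione metabolism, 12 were higher and 2 lower (30% and 5%, median 0.16), and 7 were higher without WT replicate 2. GPX2, a glutathione peroxidase, was at 7.37, 3.81 and 5.64 CPM and at 18.5, 13 and 13.5 CPM (1.30, adjusted p = 5.79e-05), the quinone reductase NQO1 rose by 0.72, while the aldehyde dehydrogenase ALDH3A2 fell by 0.51.

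Metabolic and folding genes had shares of higher genes above the 6.81% of all genes. They were 16.7% for glycolysis and hypoxia, 24.1% for cholesterol synthesis, 13.6% for fatty acids and lipids and 20% for folding and stress. The share lower was 7.5% for folding and stress and at most 2.27% for the others, against 3.49% of all genes. Of 42 genes of glycolysis and hypoxia, 7 were higher and 0 lower (median 0.10). EPAS1 and CA12 led, the regulator of glycolysis PFKFB3 rose by 0.70 on the log2 scale, the lactate exporter SLC16A3 by 0.59 and HIF1A by 0.22. Cholesterol synthesis had 7 higher and 0 lower of 29 genes (median 0.12), none above 0.34, with 3 without CGNL1-KO replicate 3 and 4 without WT replicate 3. In fatty acid and lipid metabolism (44 genes) 6 were higher, such as ACACA (0.40), and the desaturase SCD was lower (-0.29), with 3 higher without WT replicate 2 or 3 and 2 lower without WT replicate 3 or CGNL1-KO replicate 2. Of 40 genes of protein folding and stress, 8 were higher, such as the chaperones HSPB1 (0.68), CALR (0.36) and HSPA5 (0.32), and 3 lower, the amino acid synthesis enzymes PSAT1 (-0.43) and ASNS (-0.34) and the stress pseudokinase TRIB3 (-0.32). Scaled to library totals this list had 5 higher and 5 lower genes, and its higher genes numbered 4 or 5 when any library but CGNL1-KO replicate 1 was left out, while 1 was lower without WT replicate 1 or 2.

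Membrane transport and the epithelial surface also differed. The shares of higher and lower genes were 32.6% and 4.35% for surface glycoproteins and 15.9% and 6.82% for kidney transport. For carriers they were 15.6% and 8.89%, and over all genes 6.81% and 3.49%. Of 46 cell surface and secreted glycoproteins of epithelia, 15 were higher and 2 lower (median 0.17): clusterin (CLU) was at 6940, 6510 and 6597 CPM in WT and at 9907, 9120 and 9434 CPM in CGNL1-KO cells (log2 difference 0.51), the trefoil factor TFF1 rose by 1.36, MUC1 by 0.32 and PODXL by 0.41, and TM4SF18 and the aminopeptidase ENPEP (-0.47) fell. Of 44 genes of kidney ion and water transport, 7 were higher, among them CA12 and SLC9A2 (0.49), and 3 lower, the water channel AQP5 (-0.52), CLCN2 (-0.39) and ATP1B1 (-0.22), with 1 lower without WT replicate 1 or 2 or CGNL1-KO replicate 2 or 3. Of 45 carriers of nutrients and organic ions, 7 were higher and 4 lower (median 0.10), and 2 were lower without WT replicate 1 or CGNL1-KO replicate 3. The betaine transporter SLC6A12 was at 18, 14.3 and 16.5 CPM and at 41.6, 34.9 and 38.5 CPM (1.19, adjusted p = 1.63e-07), and the cystine transporter SLC7A11 (-0.93) and the efflux pumps ABCC2 (-0.75) and ABCB1 (-0.64) fell.

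Of 13 keratins and other intermediate filaments, KRT16, a keratin of activated epithelia, rose by 1.04 on the log2 scale (61.3 to 67.9 CPM in WT and 121 to 160 CPM in CGNL1-KO cells), KRT14 by 0.65 and KRT19 by 0.36, and SYNM fell by 0.47, with 0 lower without WT replicate 2 or 3 or CGNL1-KO replicate 2 or 3. Of 29 epithelial transcription factors, GRHL3 (0.74), FOXA2 (0.64), OVOL2 (0.44) and EHF (0.36) were higher and HOXD8 (-0.43) and HOXB7 (-0.36) lower. FOXA2 and OVOL2 lie on the chromosome of MYL9. The shares higher and lower were 23.1% and 7.69% for intermediate filaments and 13.8% and 6.9% for epithelial transcription factors. For S100 and annexin genes they were 9.09% and 9.09%, and over all genes 6.81% and 3.49%. Of 22 S100 and annexin genes, 18 did not pass the test, S100P (0.33) and ANXA10 (0.31) were higher (1 gene without WT replicate 2 or CGNL1-KO replicate 1 or 3), and besides S100A16 the intestinal-type annexin ANXA13 was lower, at 172, 136 and 142 CPM in WT and 67.5, 56.5 and 63 CPM in CGNL1-KO cells (-1.25, adjusted p = 1.46e-06). TRPA1, a cation channel outside the lists, was at 32.9, 30.5 and 32.9 CPM and at 12.2, 14.3 and 13.6 CPM (-1.20, adjusted p = 2.16e-08).

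Most genes of growth and housekeeping did not pass the test. Against 6.81% of all genes, the share higher was 10.7% for p53 targets and 9.52% for immediate early genes. It was at most 6.67% for the other lists of this kind. The share lower was 6% for DNA replication and 9.52% for immediate early genes, against 3.49% of all genes. Of 50 DNA replication genes 1 was higher and 3 lower, of 54 mitosis genes 1 was higher and 1 lower, and both medians were -0.10. The higher ones, PCNA (0.52) and AURKA (0.26), lie on the chromosome of MYL9. Lower replication genes numbered 0 without WT replicate 1 or 2 or CGNL1-KO replicate 1, 1 without CGNL1-KO replicate 3 and 6 without CGNL1-KO replicate 2, and mitosis genes had 0 higher without WT replicate 3 and 2 lower without WT replicate 3 or CGNL1-KO replicate 2 or 3. Of 74 cytosolic ribosomal proteins, RPS21 (0.42), on that chromosome, was higher and RPS3A (-0.46) lower (2 lower without WT replicate 1), and of 60 nuclear genes of oxidative phosphorylation 4 were higher and 0 lower, with 1 higher without WT replicate 1 or 2 or CGNL1-KO replicate 3 and 2 without each of the other libraries. Of 67 genes of the primary cilium 0 were higher and 2 lower, B9D1 (-0.33) and KIFAP3 (-0.20), with 6 lower without CGNL1-KO replicate 1 and 0 when any other library was left out. Of 28 p53 targets and cell cycle inhibitors, PLK2 (0.54), CDKN1A (0.42) and GADD45B (0.28) were higher (5 without CGNL1-KO replicate 2), and of 21 immediate early genes FOSL2 (0.18) and KLF10 (0.19) were higher and IER2 (-0.34) and KLF6 (-0.32) lower, of which scaling to totals left 0 higher and 2 lower. Of these, 0 were higher without WT replicate 1 or 3 or CGNL1-KO replicate 1 or 3 and 1 without WT replicate 2, and 1 was lower without WT replicate 3 or CGNL1-KO replicate 3. Of the markers of nephron segments, 6 of 10 principal cell and 2 of 10 intercalated cell genes were tested. So were 3 of 10 genes of thick ascending limb and distal tubule and 3 of 12 of proximal tubule. AQP2, UMOD and SLC34A1 were not listed. Of the principal cell genes 0 passed the limma, edgeR or DESeq2 test and 1 had an unadjusted p below 0.05. Among the other segments SLC4A9 was higher (0.59) and CLDN16 and CUBN (-0.40) lower. SLC4A9 did not pass without WT replicate 2 or 3 or CGNL1-KO replicate 1 or 3, and CLDN16 did not pass without WT replicate 1.

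Some of the rises lay on the chromosome that holds MYL9. Of its 317 tested genes, 119 (37.5%) were higher and 1 was lower, with a median log2 difference of 0.20, whereas 1.96% to 11.1% were higher on each of the other 38 chromosomes. The rises were uneven along it. With bounds set after the values were seen, 49 of the first 53 genes in the reference order were higher (92.5%, median 0.58), 30 of the next 195 were higher and 1 lower (15.4% higher, median 0.085), and 40 of the last 69 were higher (58%, median 0.33). FOXA2, OVOL2, JAG1, BMP2, FERMT1, GPCPD1 and PCNA lie in the first stretch, MYL9, MMP9, SLPI, CTSA and SNAI1 in the middle one, and AURKA, BMP7, PMEPA1, CTSZ and RPS21 in the last. The whole chromosome holds 2.7% of the placed genes and 14.6% of the placed genes that rose at any fold. Of the 77 placed genes called changed, 3 lie on it, MMP9, SLPI (1.20), an inhibitor of leukocyte elastase, and GPCPD1 (1.08). Outside it, 742 of 12333 genes were higher and 440 lower. The part of this chromosome in the rises of its genes was not tested.

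The changes were also set against the other KO lines by direct tests. CGNL1-KO cells differed from CGN-KO cells in 82 genes (0.648% of those tested), 28 higher and 54 lower, and from double-KO cells in 88 genes (0.696%), 61 higher and 27 lower. S100A16, at 0.395 to 2.21 CPM in CGN-KO and 0.0969 to 0.284 CPM in double-KO cells, was low in all 3 KO lines, which share the WT libraries as their reference. FBP2 was at 3.09 to 5.36 CPM in WT and 0.858 to 1.18 CPM in CGNL1-KO cells, but at 11.6 to 15 CPM in CGN-KO and 12.6 to 13.8 CPM in double-KO cells. The log2 differences of CGNL1-KO from them were -2.81 and -2.83 (adjusted p = 2.94e-09 and 5.33e-09). PDE1A, which rose in CGNL1-KO cells, was at 0 to 0.198 CPM in CGN-KO and 0.0812 to 0.339 CPM in double-KO cells, with log2 differences of 2.48 and 2.29 (adjusted p = 4.04e-08 and 7.03e-08). 

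TRPA1 was at 12.2 to 14.3 CPM in CGNL1-KO, 41.2 to 44.1 CPM in CGN-KO and 87.2 to 100 CPM in double-KO cells, with log2 differences of -1.61 and -2.74 (adjusted p = 9.17e-10 and 6.78e-13). CCL20 and MMP9 were higher in CGNL1-KO cells than in CGN-KO cells (1.20 and 1.72, adjusted p = 0.000107 and 0.00101) and than in double-KO cells (2.38 and 2.41, adjusted p = 3.82e-08 and 2.18e-05). PLEKHA7 was at 3.17 to 3.60 CPM in CGN-KO and 2.66 to 3.53 CPM in double-KO cells, and its level in CGNL1-KO cells did not differ from them by the test (-0.26 and -0.15, adjusted p = 0.27 and 0.48). CGNL1 itself was lower in CGNL1-KO than in CGN-KO cells (-1.07, adjusted p = 0.00102), which were at 5.04 to 6.92 CPM. ACKR3, at 108 to 126 CPM in CGN-KO cells, and EPAS1, at 60.5 to 74.8 CPM, were lower in CGNL1-KO than in CGN-KO cells (-1.77 and -0.87, adjusted p = 1.16e-08 and 2.57e-05).

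**Figure D5:**
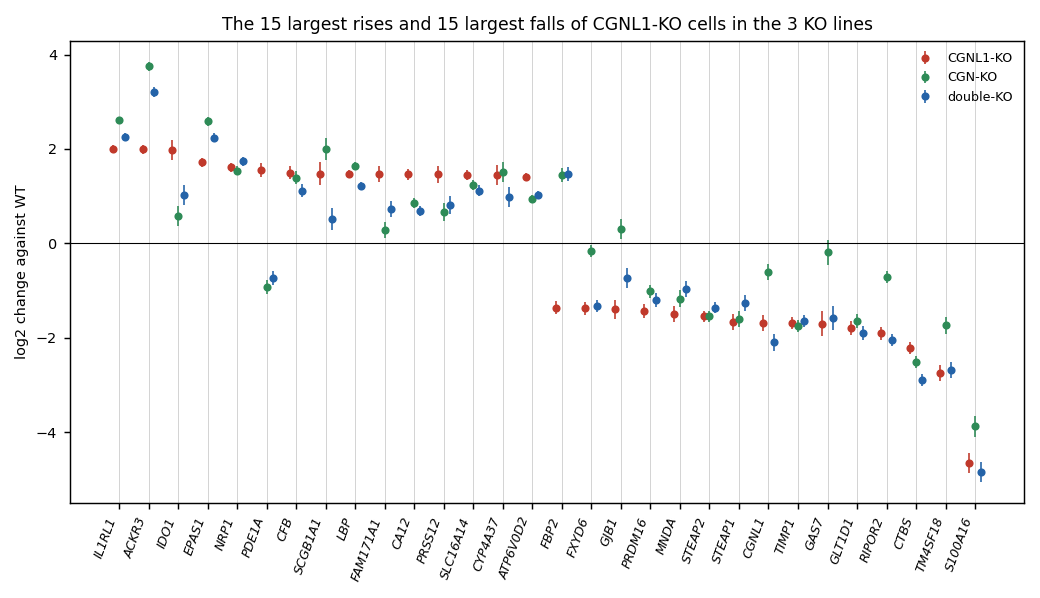
Points are the log2 differences from WT of CGNL1-KO (red), CGN-KO (green) and double-KO cells (blue), with bars of 1 SE, for the 15 largest rises and 15 largest falls of CGNL1-KO cells in order of their change. The 3 contrasts share the WT libraries. PDE1A and FBP2 lie on opposite sides of 0 in CGNL1-KO and the other lines.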

How the data were processed

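The series holds RNASeq of 12 MDCKII libraries, 3 for each of 4 genotypes, made with a stranded TruSeq mRNA kit. The authors aligned reads with STAR 2.7.0f and counted them per gene with HTSeq 0.9.1 on CanFam3.1, per the submitters' processing notes. The annotation release and the strand setting of the counting are not given in the sources used here. The deposited values are a normalized signal, CPM after TMM scaling and with lowly expressed genes removed by the authors. Whole reads were recovered from the value steps (100% of values within 0.1 read of a whole number), and TMM factors computed from them differed from the deposited scaling by at most 1.11e-10. The table has 0 columns without a sample or group. Of the names, 16 are in the form of dates.

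Genes above 1 CPM in at least 3 of 12 libraries were fitted as log2(CPM + 1) with limma 3.58.1 (R 4.3.3) in 1 model over the 4 genotypes, with two-sided moderated tests, a trend in the variance and Benjamini-Hochberg adjustment over 12650 genes. A gene is called changed at an adjusted p below 0.05 and at least a 2-fold difference, and "higher", "lower", "rose" and "fell" mean the adjusted p at any fold. The pseudocount lowers the differences of scarce genes. edgeR 4.0.16 and DESeq2 1.42.0 were run on recovered reads as alternatives, beside other pseudocounts, filters, scaling, fits and each library left out. Plots used matplotlib 3.10.9.

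Named were CGNL1, CGN, changed genes without overlap of the groups (the 15 largest rises and falls with values), up to 4 members of each of 50 lists past the adjusted p, up to 2 members of highest WT level where fewer than 2 passed, and 3 placed genes on each side of CGNL1. Further list members past the adjusted p, the EPAS1 values in the other lines and the grouping of MHC and interferon genes were chosen after the values were seen. Some genes that passed the test and 1 list are not reported here. The members and lists were chosen with earlier results of these data known. Lists are described by counts and medians, with no test. Gene order came from the RefSeq table of another dog assembly, which placed 92.9% of the genes. Intervals on reads cover counting error only.

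Equal replicate numbers were checked by the correlation of deviations from group means. For CGNL1-KO and CGN-KO they were 0.632, 0.475 and 0.179, but CGN-KO replicate 3 correlated better with CGNL1-KO replicate 2 (0.32). Whether those numbers pair the libraries is therefore not settled. Between these genotypes the fit with a replicate block gave 83 changed genes in place of 82.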

Additional observations from a re-analysis of the deposited data

Results flagged for a closer look

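The effects of the KO lines differed by a direct test within the limma model. CGNL1-KO cells differed from CGN-KO cells in 82 genes and from double-KO cells in 88 genes at an adjusted p below 0.05 and 2-fold.

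Among the 15 largest rises, ACKR3 was lower in CGNL1-KO than in CGN-KO cells (log2 difference -1.77, adjusted p = 1.16e-08) and in double-KO cells (-1.22, adjusted p = 7.76e-07). IDO1 was higher than in CGN-KO cells (1.41, adjusted p = 0.000588). PDE1A was higher than in CGN-KO (2.48, adjusted p = 4.04e-08) and double-KO cells (2.29, adjusted p = 7.03e-08), and FAM171A1 was higher than in CGN-KO cells (1.18, adjusted p = 0.000361).

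Among the 15 largest falls, lower levels than in CGN-KO cells were found for TM4SF18 (log2 difference -1.01, adjusted p = 0.00201), RIPOR2 (-1.20, adjusted p = 2.29e-05), GAS7 (-1.51, adjusted p = 0.00192), GJB1 (-1.70, adjusted p = 8.68e-05) and FXYD6 (-1.21, adjusted p = 2.29e-05). FBP2 was lower than in CGN-KO (-2.81, adjusted p = 2.94e-09) and double-KO cells (-2.83, adjusted p = 5.33e-09). Groups of 3 libraries are too small for the outlier check used here.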

How the results depend on the processing

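The number of changed genes depended on how scarce genes were treated. Against WT it was 78, and 132 with a pseudocount of 0.25, 25 with a pseudocount of 5, 48 among genes with a mean of at least 5 CPM, 157 by edgeR and 157 by DESeq2. In that order of settings it was 126, 24, 42, 146 and 144 against CGN-KO (82) and 159, 23, 45, 194 and 199 against double-KO (88). edgeR called all 78 and 79 more, of which 67 had a mean below 5 CPM. Fitting only the groups compared gave 787 genes past the adjusted p at any fold against WT in place of 1302. Leaving out each library in turn gave 75 to 88 changed genes against WT, 77 to 85 against CGN-KO, 81 to 111 against double-KO, and 846 (without WT replicate 2) to 1241 genes at any fold. Of the 78 changed genes, 57 were called in all 6 of these fits against WT and 76 kept the adjusted p, with RIPPLY1 among the exceptions. The log2 values of 31 named genes under 16 settings kept direction and call in 471 of 485 instances, and the other 14 were under 2-fold with a pseudocount of 5. Of 800 list medians 66 moved by more than the spread between replicates.

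Whether equal numbers pair WT and CGNL1-KO libraries is not settled either. The correlations of equal numbers were 0.329, 0.371 and 0.011. WT replicate 1 with CGNL1-KO replicate 2 gave -0.33, and WT replicate 2 with CGNL1-KO replicate 1 gave -0.367. WT replicate 3 correlated little with any, and slightly better with CGNL1-KO replicate 2 (0.0262). With the replicate block 78 genes were changed and 1897 passed at any fold. Against double-KO, where 1 library has no number and was left out, the block gave 87, and against CGN-KO 83. With 3 libraries of 1 line per genotype, small differences of scarce genes are limited by depth.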

Other observations

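Gene families named by a shared symbol stem, with at least 15 tested members, numbered 78. Of these, 33 had no lower and 24 no higher member at the limma adjusted p. Over all genes 6.81% were higher and 3.49% lower, and at such shares a family of 15 genes often has none. Symbols that begin with SLC, nearly all solute carriers, had 22 higher (11.3%) and 6 lower members of 195, the scaffold SLC9A3R2 among the lower ones. The SLC share lower, 3.08%, was near that of all genes. Zinc finger genes (ZNF) had 4 higher (1.82%) and 3 lower of 220. The DUSP phosphatases had 3 higher (18.8%) and 4 lower (25%) of 16. Symbols that begin with USP, mainly ubiquitin-specific proteases, had 1 higher and 5 lower (10.9%) of 46, USP6NL, which is no such protease, among the lower ones, and the cytochromes P450 (CYP) had 3 higher, CYP4A37, CYP4A11 and CYP1B1 (log2 differences 1.45, 1.13 and 0.35), and 0 lower of 16. These families were picked after their counts were seen, and they were not tested.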
